A study of Mus musculus with 6 samples.

Results

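Respiratory complex I, NADH:ubiquinone oxidoreductase, is the entry point of electrons from NADH into the mitochondrial respiratory chain. Its genes were examined in hearts of mice that express DNA methyltransferases ectopically. The set held 39 nuclear genes, 35 encoding subunits and 4 encoding assembly factors. They were fixed by gene symbol, and every probe set whose platform annotation names only 1 of them was taken. That gave 80 probe sets for 37 of the 39 genes, out of 45101 probe sets in the table. Ndufa11 and Ndufs6 have only probe sets that name another gene as well, and Ndufb4 has 1 probe set of its own, which lay below the filter on dim signals. The other 36 genes, 32 subunits and the 4 assembly factors, were tested among 13634 genes.

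Heart tissue of 3 DNMTs-Tg mice (replicates 1, 5 and 6) were compared with that of 3 wild-type mice (replicates 1, 4 and 6), with 1 Affymetrix array per mouse and all mice 8 weeks old. DNMTs-Tg mice express DNMT3A2, a form of a de novo DNA methyltransferase, and its partner DNMT3L in many somatic tissues, lifelong, and grow slowly and die early. They came from FVB-Tg(Ddx4-cre)1Dcas/J females, in which Cre is driven by the germ cell gene Ddx4, crossed with flox males. The labels do not say whether the wild-type mice carried the Cre or the flox allele alone, or were littermates. The study asked which heart genes lose expression in these mice. DNA methylation was not analysed here.

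Complex I is L-shaped. The N module in the matrix arm oxidises NADH at a flavin and passes electrons along iron-sulfur clusters, the Q module hands them to ubiquinone, and the P module, embedded in the inner membrane, pumps protons. The catalytic core is surrounded by accessory subunits, and assembly factors help to join the modules without staying in the finished enzyme. The heart depends on oxidative metabolism, and cardiomyocytes are packed with mitochondria.

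Median log2 signal per array was 5.28 to 5.33. Dnmt3l had log2 signals of 12.19 to 12.38 in DNMTs-Tg hearts, against 5.17 to 5.48 in wild-type hearts. The labels call 5 mice female and wild-type replicate 6 male. Xist, the X-inactivation transcript, reached 4.60, 4.93 and 4.52 in DNMTs-Tg replicates 1, 5 and 6, against 4.65, 10.1 and 4.96 in wild-type replicates 1, 4 and 6. The Y-linked Eif2s3y had 9.41 to 9.52 on 5 arrays and 3.32 on that of wild-type replicate 4, so the sex-linked RNA of 4 mice went against the label. The cardiomyocyte markers Myh6, Actc1, Tnnt2, Tnni3, Myl2, Ryr2, Pln and Ttn had mean log2 signals of 13.84 to 14.13 in DNMTs-Tg and 14.15 to 14.18 in wild-type hearts. DNMTs-Tg replicate 1 stood apart from the rest, as described below with the complex I values.

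Complex I genes were measured slightly lower in DNMTs-Tg hearts. All 36 tested members had a log2 difference (DNMTs-Tg minus wild-type) below 0, with a median of -0.30 and a range of -0.66 to -0.04. Over all genes tested 49.2% lay below 0, and the median was 0.01. Only 1 member, the assembly factor gene Ndufaf2, fell past the threshold of limma (adjusted p under 0.05, Benjamini-Hochberg over all genes), and 0 rose. Of all genes tested 3.15% fell and 2.24% rose by the same rule. At an unadjusted p under 0.05 there were 18 lower members, where 13.1% of all genes were lower. In 28 of the 36 members every DNMTs-Tg array lay below every wild-type array, and 17.6% of all genes did so. The reverse order was seen in 0 members and in 17.3% of all genes. At an adjusted p under 0.1, 4 members were lower, where 6.51% of all genes were. All 36 were above the filter on every array, with the dimmest at the 80.5th percentile of its array, so none was kept through its wild-type signal alone.

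The size of the differences depended on DNMTs-Tg replicate 1. Relative to the wild-type mean, the median over the members was -0.55 in DNMTs-Tg replicate 1, -0.21 in replicate 5 and -0.11 in replicate 6, and between -0.01 and 0.01 in the wild-type hearts. Replicate 1 had the lowest of the 6 signals for 34 of 36 members, and for 30.1% of all genes. DNMTs-Tg replicate 6 was nearest to wild-type, as the highest of its group for 29 of 36 members. Even so, 35 members were lower than every wild-type array in replicate 5 and 29 were in replicate 6. Without replicate 1 the median was -0.15, 35 of 36 members stayed below 0 (48.5% of all genes did), and 6 were called lower (Ndufaf2, Ndufs3, Ndufs5, Ndufa8, Ndufab1 and Ndufb10), where 4.55% of all genes were called lower. Without DNMTs-Tg replicate 6 the calls were Ndufaf2, Ndufa5 and Ndufb10, where 5.79% of all genes were called lower. Leaving out any of the other 4 arrays left 0 members called, so the call of Ndufaf2 was lost without any 1 of them. The shares of all genes called in those 4 fits are not given here, so these counts cannot be set against them. A fit with array weights, which stopped before convergence, called 23 members lower, where it called 18.3% of all genes lower.

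**Figure D1:**
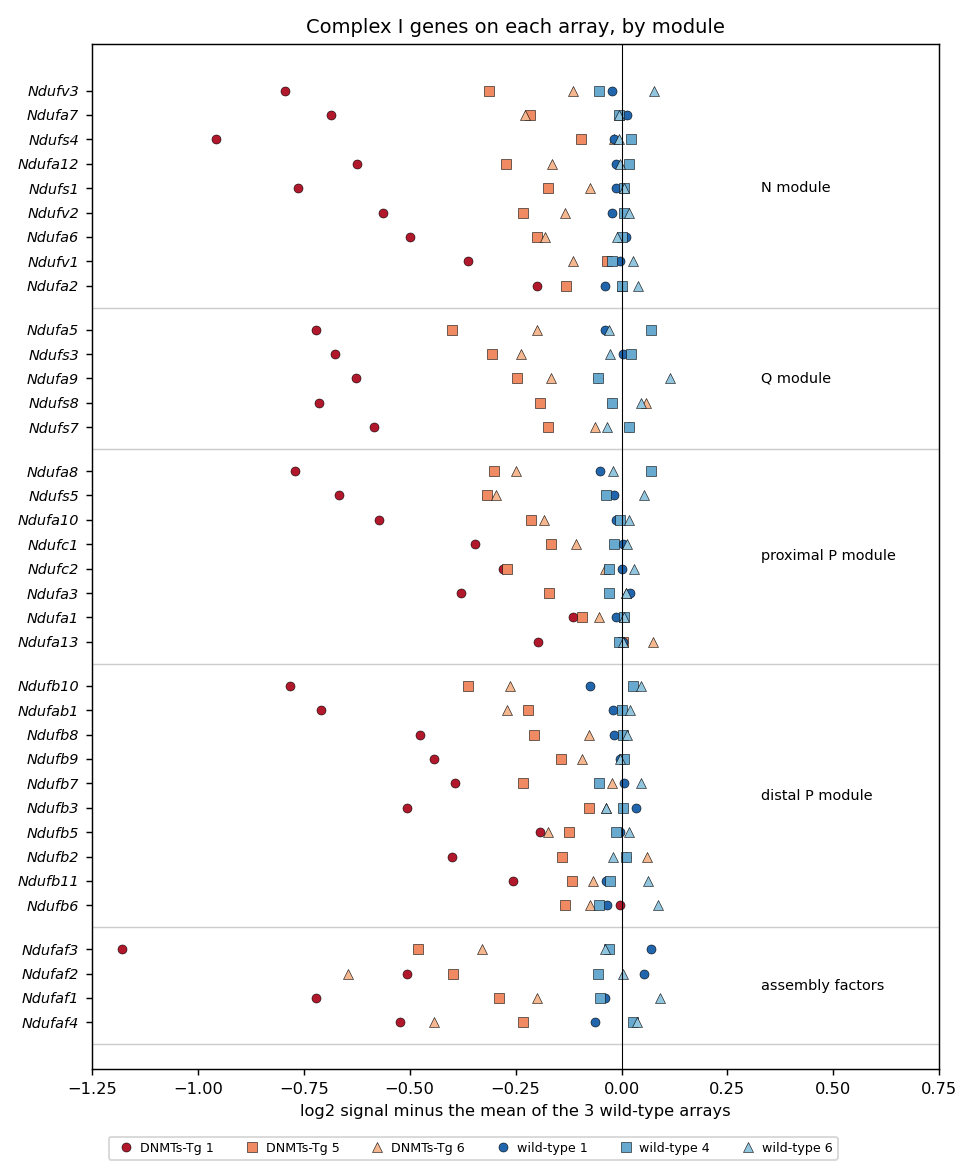
Log2 signal of the 36 tested complex I genes on each array minus the mean of the 3 wild-type arrays, with 1 row per gene, grouped by module. Circles of DNMTs-Tg replicate 1 lie farthest to the left for 34 of 36 genes. DNMTs-Tg replicate 5 lies to the left of every wild-type array for 35 genes and replicate 6 for 29.

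The N module, which binds NADH, had 9 tested members with a median difference of -0.33 and a range of -0.40 to -0.11. None passed the threshold. At an unadjusted p under 0.05, 5 were lower, where 13.1% of all genes were. In 8 of 9 every DNMTs-Tg array lay below every wild-type array, as in 17.6% of all genes. The accessory subunit gene Ndufa12 had log2 signals of 13.03, 13.38 and 13.49 in DNMTs-Tg replicates 1, 5 and 6, against 13.64, 13.67 and 13.65 in wild-type replicates 1, 4 and 6. Every DNMTs-Tg heart was below every wild-type heart, with replicate 1 the lowest, and the difference was -0.36 ± 0.12 (SE, n = 3 per group, limma adjusted p = 0.130). Ndufa6, an accessory subunit next to the acyl carrier protein, had 12.78, 13.08 and 13.10 in DNMTs-Tg against 13.29, 13.28 and 13.27 in wild-type hearts. The wild-type values spanned 0.02 and the groups did not overlap, yet the difference of -0.29 ± 0.10 did not pass (adjusted p = 0.140). Ndufv3, a small subunit of the flavoprotein part, differed most in this module, with 12.98, 13.46 and 13.66 in DNMTs-Tg against 13.75, 13.72 and 13.85 in wild-type hearts. That is a difference of -0.40 ± 0.17 (adjusted p = 0.186), and without replicate 1 it was -0.21.

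The subunits that carry the electron path through the N module had differences of unequal size. Ndufv1, which holds the flavin and the NADH site, had a difference of -0.17 (adjusted p = 0.335). Ndufv2 and Ndufs1, both iron-sulfur subunits, had -0.31 and -0.33 (adjusted p = 0.162 and 0.274). Ndufv1's kept probe sets did not point one way. The brightest had 12.84, 13.17 and 13.09 in DNMTs-Tg against 13.20, 13.18 and 13.23 in wild-type hearts, another differed by -0.30, and the last by 0.01, with 12.66, 13.05 and 12.96 in DNMTs-Tg hearts and 12.50 in wild-type replicate 4 against 13.05 and 13.10 in the other wild-type hearts. Ndufs4, an accessory subunit whose loss causes Leigh-like disease in mice, showed the widest spread among DNMTs-Tg arrays. Its brightest probe set had 10.84, 11.70 and 11.78 in DNMTs-Tg against 11.78, 11.82 and 11.79 in wild-type hearts, so only replicate 1 was far from wild-type. The difference of -0.36 ± 0.24 (adjusted p = 0.379) was -0.06 without it. A dimmer Ndufs4 probe set had 6.41, 7.55 and 8.14 in DNMTs-Tg against 8.46, 8.36 and 8.46 in wild-type hearts, a difference of -1.06 ± 0.39 (adjusted p = 0.157 over all kept probe sets), and the last kept one differed by 0.00. The remaining N module members Ndufa7 and Ndufa2 differed by -0.38 and -0.11.

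The Q module, which reduces ubiquinone, had 5 tested members, all between -0.44 and -0.27, with a median of -0.34. None passed. At an unadjusted p under 0.05, 3 were lower, where 13.1% of all genes were. In 4 of 5 every DNMTs-Tg array lay below every wild-type array, as in 17.6% of all genes. Ndufs3, a core subunit, had 12.49, 12.86 and 12.93 in DNMTs-Tg against 13.17, 13.19 and 13.14 in wild-type hearts. The difference was -0.41 ± 0.12 (adjusted p = 0.103), and it passed without DNMTs-Tg replicate 1, where it was smaller but the DNMTs-Tg spread was narrower (-0.27, adjusted p = 0.0372). Ndufa5, an accessory subunit of this module, had 12.52, 12.84 and 13.04 in DNMTs-Tg against 13.20, 13.31 and 13.21 in wild-type hearts, a difference of -0.44 ± 0.14 (adjusted p = 0.106). Its 2 probe sets differed by -0.44 and -0.41. Ndufs7 and Ndufs8, which carry the iron-sulfur clusters nearest to ubiquinone, differed by -0.27 and -0.28 and Ndufa9 by -0.34 (adjusted p = 0.252, 0.360 and 0.167). In its brightest probe set Ndufs8 overlapped between the groups, since DNMTs-Tg replicate 6 at 13.40 was above all wild-type hearts (13.32 to 13.39). The other kept Ndufs8 probe sets differed by -0.48, -0.41 and -0.30 with the groups apart, and by -0.29 and -0.20 with overlap.

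The proximal part of the P module, next to the Q module, had 8 tested members with a median difference of -0.20. It held both large and minimal differences. Ndufs5, an accessory subunit on the intermembrane side, had 11.20, 11.55 and 11.57 in DNMTs-Tg against 11.85, 11.83 and 11.92 in wild-type hearts, the groups being apart by more than the span within wild-type. The difference was -0.43 ± 0.12 (adjusted p = 0.0812), and -0.31 without replicate 1 (adjusted p = 0.0426). Ndufa8, another intermembrane-side subunit, had 12.28, 12.75 and 12.80 in DNMTs-Tg against 13.00, 13.12 and 13.03 in wild-type hearts. Its difference of -0.44 ± 0.15 did not pass (adjusted p = 0.120), but passed at -0.28 without replicate 1 (adjusted p = 0.0465). Ndufa10 differed by -0.32, and Ndufc1, Ndufc2 and Ndufa3 by -0.21, -0.20 and -0.18. The kept probe sets of Ndufa3 differed in sign. The brightest had 13.36, 13.57 and 13.75 in DNMTs-Tg against 13.76, 13.71 and 13.75 in wild-type hearts, while a dim one near 5 on the log2 scale had 5.39, 5.34 and 4.74 against 4.92, 5.01 and 4.96, a difference of 0.19. Ndufa13, also known as GRIM-19, was nearly level at 13.61, 13.81 and 13.88 in DNMTs-Tg against 13.81, 13.80 and 13.81 in wild-type hearts (-0.04 ± 0.09, adjusted p = 0.817), and lay at 0.04 without replicate 1.

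The distal part of the P module had 10 tested members with a median of -0.21 and a range of -0.47 to -0.07. Of these 0 passed, and 2 were lower at an unadjusted p under 0.05, where 13.1% of all genes were. The 2 were Ndufb10 and Ndufab1. Ndufb10, an accessory subunit, had 12.49, 12.91 and 13.01 in DNMTs-Tg against 13.20, 13.30 and 13.32 in wild-type hearts, a difference of -0.47 ± 0.14 (adjusted p = 0.0983). Ndufab1, the mitochondrial acyl carrier protein, which also serves fatty acid synthesis, had 13.00, 13.49 and 13.44 in DNMTs-Tg against 13.69, 13.71 and 13.73 in wild-type hearts (-0.40 ± 0.14, adjusted p = 0.126). That value rests on 1 bright probe set, whose suffix marks probes that match several transcripts. The other 3 kept Ndufab1 probe sets, all much dimmer, differed by -0.04, -0.16 and -0.05 with overlapping groups, and the mean of its probe sets differed by -0.16. Its call depended on the arrays used, with an adjusted p of 0.0361 at -0.24 without DNMTs-Tg replicate 1. Ndufb8, Ndufb9, Ndufb7, Ndufb3, Ndufb5, Ndufb2, Ndufb11 and Ndufb6 were between -0.25 and -0.07, with adjusted p from 0.195 to 0.638. Ndufb6 was the 1 member for which DNMTs-Tg replicate 1, at 12.65, was the highest of its group.

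The X-linked members, Ndufa1 of the proximal and Ndufb11 of the distal part, showed small differences of -0.09 ± 0.07 and -0.15 ± 0.08 (adjusted p = 0.443 and 0.301). Without wild-type replicate 4, the heart with Xist RNA, they were -0.08 and -0.16. Over all members the median without that array was -0.30, with 36 of 36 below 0.

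**Figure D2:**
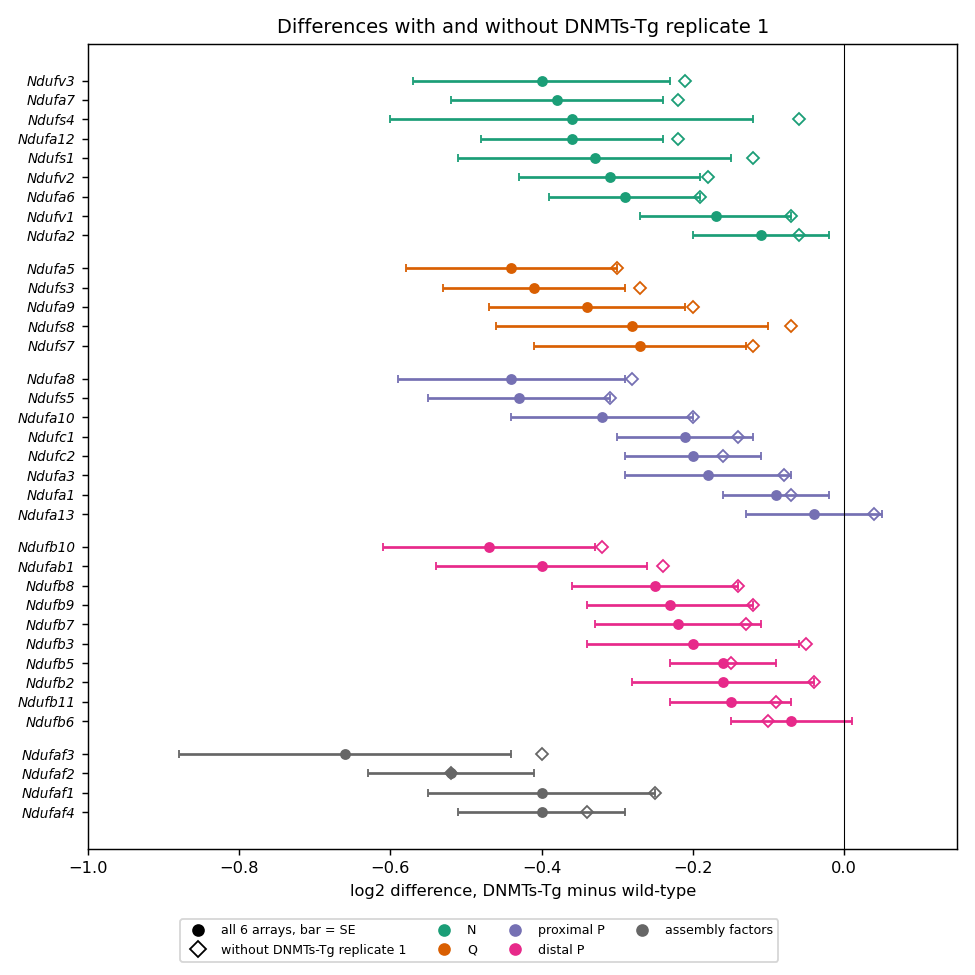
Log2 difference, DNMTs-Tg minus wild-type, for the 36 tested genes by module, with all 6 arrays (filled circles, bars give the SE from limma) and without DNMTs-Tg replicate 1 (open diamonds). Most diamonds lie closer to 0 than the circles, with medians of -0.15 and -0.30 over the genes, and that of Ndufaf2 coincides with its circle at -0.52.

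The 4 assembly factor genes of the set had the lowest median of its groups, -0.46. The group medians were not tested against each other. The further complex I list described below, mostly other assembly factors, had a median of -0.36. In each of the 4 genes the DNMTs-Tg hearts were all below the wild-type hearts, as in 17.6% of all genes. All 4 were lower at an unadjusted p under 0.05, where 13.1% of all genes were. Ndufaf2, a paralog of Ndufa12 that stands in for it late in assembly, had 8.24, 8.35 and 8.10 in DNMTs-Tg against 8.80, 8.69 and 8.75 in wild-type hearts. Unlike most subunits it was not lowest in replicate 1. It fell by 0.52 on the log2 scale (SE 0.11, adjusted p = 0.0422), which is 30.1% lower, and by 0.52 without replicate 1 as well (adjusted p = 0.0424). The call was kept in 2 of 6 fits with 1 array left out, with adjusted p up to 0.177. Among all 27319 kept probe sets tested together, the same Ndufaf2 probe set had an adjusted p of 0.0515.

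Ndufaf4, which acts with Ndufaf3 on the early Q module, had 10.22, 10.51 and 10.30 in DNMTs-Tg against 10.68, 10.77 and 10.78 in wild-type hearts, a difference of -0.40 ± 0.11 (adjusted p = 0.0747). A second Ndufaf4 probe set differed by -0.57 (adjusted p = 0.0851 over all kept probe sets). Ndufaf3 had the largest difference of all members, with 8.88, 9.58 and 9.73 in DNMTs-Tg against 10.13, 10.03 and 10.02 in wild-type hearts. At -0.66 ± 0.22 it was measured 36.7% lower but did not pass (adjusted p = 0.119), and without replicate 1 it was -0.40 (adjusted p = 0.0518). Ndufaf1, a factor of the membrane arm, differed by -0.40 ± 0.15 (adjusted p = 0.151).

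Genes of complex I outside the set were compared from a list of 25 further subunits and assembly factors, of which 15 were tested. Apart from the subunit gene Ndufb1, the tested genes were assembly factors. Of the tested genes, 14 lay below 0, with a median of -0.36, and 1 fell, where 3.15% of all genes fell. The 1 that fell was Nubpl, which helps to insert iron-sulfur clusters into complex I. It had 8.33, 8.55 and 8.68 in DNMTs-Tg against 9.29, 9.27 and 9.19 in wild-type hearts. Nubpl fell by 0.73 on the log2 scale (SE 0.12, adjusted p = 0.0217) and by 0.63 without DNMTs-Tg replicate 1, and its call was kept in 2 of 6 fits with 1 array left out. The list as a whole had 4 calls without DNMTs-Tg replicate 6 and 1 without DNMTs-Tg replicate 1, where 5.79% and 4.55% of all genes were called lower. It had 0 without any 1 of the other 4 arrays, and 0 with the label number as a block. Dmac1, another assembly factor, was the 1 gene above 0 (0.10, adjusted p = 0.567). The other 10 listed genes were not analysed here.

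The nearest gene groups were the other respiratory complexes and the mitochondrial ribosome. Cox7a1 and Ndufa4, both of complex IV, had the lowest p among complexes II to V (-0.93 and -0.31, adjusted p = 0.0566 and 0.0694). Of 40 tested genes of complexes II to V, 37 lay below 0, with a median of -0.15 and 0 past the threshold. At an unadjusted p under 0.05, 11 were lower and 1 was higher, where 13.1% of all genes were lower. Without DNMTs-Tg replicate 1 the median of complexes II to V was -0.09 and 5 were called lower. Without DNMTs-Tg replicate 6 1 was called, and array weights called 14. In these fits, in that order, 4.55%, 5.79% and 18.3% of all genes were called lower. Of 73 mitochondrial ribosomal protein genes, 59 lay below 0, with a median of -0.22, and 8 fell, where 3.15% of all genes fell. With 1 array left out, 0 (without wild-type replicate 1) to 17 (without DNMTs-Tg replicate 6) ribosomal genes were called, the other fits giving 1 (without DNMTs-Tg replicate 5), 2 (without wild-type replicate 4 or 6) and 11 (without DNMTs-Tg replicate 1). Shares over all genes are not given here for the fits without any of the arrays other than DNMTs-Tg replicates 1 and 6. With the label number as a block 0 ribosomal genes were called. The lowest p among these were those of Mrpl48 (-0.89), Mrps2 (-1.12), Mrps15 (-1.07) and Mrpl55 (-1.01), with adjusted p of 0.00731, 0.00892, 0.0159 and 0.0215. Every DNMTs-Tg array lay below every wild-type array in 27 of 40 genes of complexes II to V and in 36 of 73 ribosomal genes. The reverse order was seen in 0 and 4 of them. Of the 15 other complex I genes, 10 had all DNMTs-Tg arrays lower and 0 had all higher. Over all genes 17.6% had all DNMTs-Tg arrays lower. The differences between the medians of these groups and that of complex I were not tested. Of 16 regulators of mitochondrial genes 8 lay below 0, with a median of -0.02 and 0 past the threshold, 1 at an unadjusted p under 0.05. Tfb1m, a mitochondrial rRNA methyltransferase, differed by -0.70 (adjusted p = 0.0855), and Ppara, a regulator of fatty acid oxidation, by -0.53 (adjusted p = 0.195).

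Macrophage and fibroblast markers stood high in DNMTs-Tg replicate 1, the heart with the lowest complex I signals, and their list medians did not in replicates 5 and 6. In bulk heart tissue, fewer cardiomyocytes and less RNA per cardiomyocyte cannot be told apart. Of 13 tested macrophage and myeloid markers 12 lay above 0 and 0 passed, where 2 were higher at an unadjusted p under 0.05. The list medians relative to wild-type were 1.36, -0.26 and -0.14 in the DNMTs-Tg hearts (replicates 1, 5, 6), and the wild-type hearts lay between -0.04 and 0.06. The mean log2 level of that list was 9.62, 8.05 and 8.14 in these DNMTs-Tg hearts, while wild-type hearts had 7.95 to 8.14. Ccr2, a receptor of recruited monocytes, and Lgals3, a galectin of activated macrophages, were high in every DNMTs-Tg heart. Ccr2 had 7.03, 5.68 and 5.96 in DNMTs-Tg against 4.79, 4.84 and 4.74 in wild-type hearts (1.44, adjusted p = 0.0509), and without replicate 1 it rose (1.03, adjusted p = 0.00777). Lgals3 had 9.61, 7.79 and 7.20 in DNMTs-Tg against 6.57, 5.66 and 5.88 in wild-type hearts (2.16, adjusted p = 0.0792), and without replicate 1 it rose too (1.46, adjusted p = 0.0331). The other 11 macrophage markers gave no call in either fit. Postn, a matrix protein of activated fibroblasts, had 12.77, 10.58 and 9.87 in DNMTs-Tg against 9.04, 9.28 and 9.40 in wild-type hearts (1.84, adjusted p = 0.143), and without replicate 1 it rose (0.99, adjusted p = 0.0411). Ogn, also a matrix protein, fell in both fits (-0.98, adjusted p = 0.0284 with all arrays and 0.0307 without replicate 1). Of the 10 fibroblast markers 7 lay above 0, with list medians of 0.75, 0.06 and 0.08, and mean levels of 11.55, 10.64 and 10.63 in DNMTs-Tg against 10.34 to 10.77 in wild-type hearts. Of the 8 cardiomyocyte markers 7 lay below 0, with a median of -0.18, list values of -0.33, -0.09 and -0.05 in DNMTs-Tg, and 0 past the threshold. Endothelial markers had mean levels of 9.54 to 9.79 in DNMTs-Tg and 9.46 to 9.54 in wild-type hearts, with 5 of 8 above 0 and Vwf rising (1.39, adjusted p = 0.0177). Of smooth muscle (7 tested), lymphocyte (4), erythroid (1) and adipocyte (0) markers none passed. RNA integrity was read from Gapdh, as its 3' minus its 5' signal on the log2 scale, which was 0.75, 0.53 and 0.71 in DNMTs-Tg and 0.50, 0.40 and 0.40 in wild-type hearts. The same measure for Actb was 1.05, 0.91 and 1.40 in DNMTs-Tg and 1.25, 1.09 and 1.12 in wild-type hearts. For Gapdh every DNMTs-Tg heart was above every wild-type heart. For Actb DNMTs-Tg replicate 6 was above every wild-type heart, while replicates 1 and 5 were below every one. With replicate 1 left out, the median difference was -0.20 for the macrophage list, 0.07 for the fibroblast list and -0.07 for the cardiomyocyte list. In that fit 7 of 8 cardiomyocyte markers and 35 of 36 complex I genes lay below 0. The part of cell makeup and RNA integrity in the complex I differences was not tested.

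**Figure D3:**
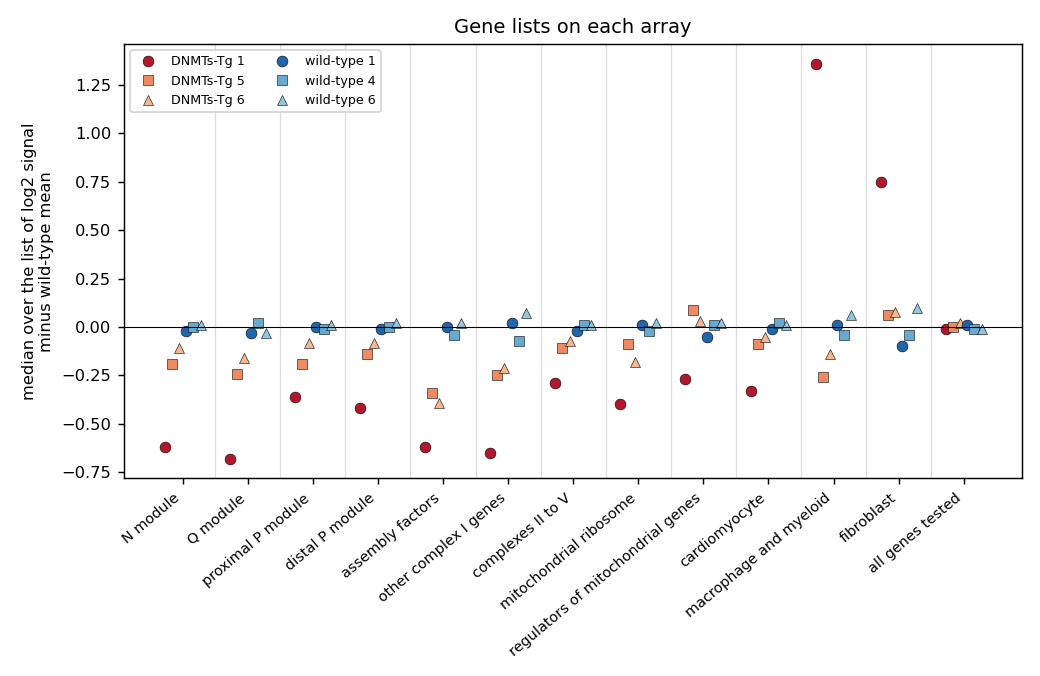
Median over each gene list of the log2 signal minus the wild-type mean, with 1 point per array. The complex I modules lie below 0 in all 3 DNMTs-Tg hearts, most so in replicate 1, in which the macrophage markers (1.36) and fibroblast markers (0.75) stand highest, while the median of all genes tested stays within 0.02 of 0.

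Among the members, the difference went with signal level. The brightest probe sets of the subunits lay near the top of the scale, with mean log2 signals of 11.62 to 13.92. The highest value on any array was 14.74. Those of the assembly factors lay between 8.49 and 10.54. The 12 brightest members had a median difference of -0.24 and the 12 dimmest -0.37. Across the 36 members Pearson's r between level and difference was 0.58 and Spearman's rho 0.46, and across the 32 subunits 0.30 and 0.28. These are descriptions over genes that share the same 6 arrays. Whether bright probe sets understate differences was not tested.

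Probe sets of the same gene mostly pointed the same way but not to the same size. Of the 80 member probe sets 76 passed the filter, 73 of them below 0 and 3 above, with a median of -0.29, where 49.1% of all kept probe sets lay below 0. In 53 of the 76 every DNMTs-Tg array was below every wild-type array, against 16.4% of all kept probe sets. Tested among all kept probe sets, 0 member probe sets passed limma's threshold, where 2.36% of all fell, while 35 were lower at an unadjusted p below 0.05, as were 12.1% of all, and 0 were higher. Of 21 genes with more than 1 kept probe set, 18 had all of them below 0, and Ndufa3, Ndufs4 and Ndufv1 did not. In 16 of the 21 a probe set other than the brightest had the lowest difference. Ndufb5, for example, differed by -0.16 in its brightest probe set and by -0.37 in the other, and Ndufb7 by -0.22 and -0.36. The platform suffix for probes that match more than 1 transcript is carried by the brightest probe set of 21 of the 36 genes, and their signals may include related transcripts.

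**Figure D4:**
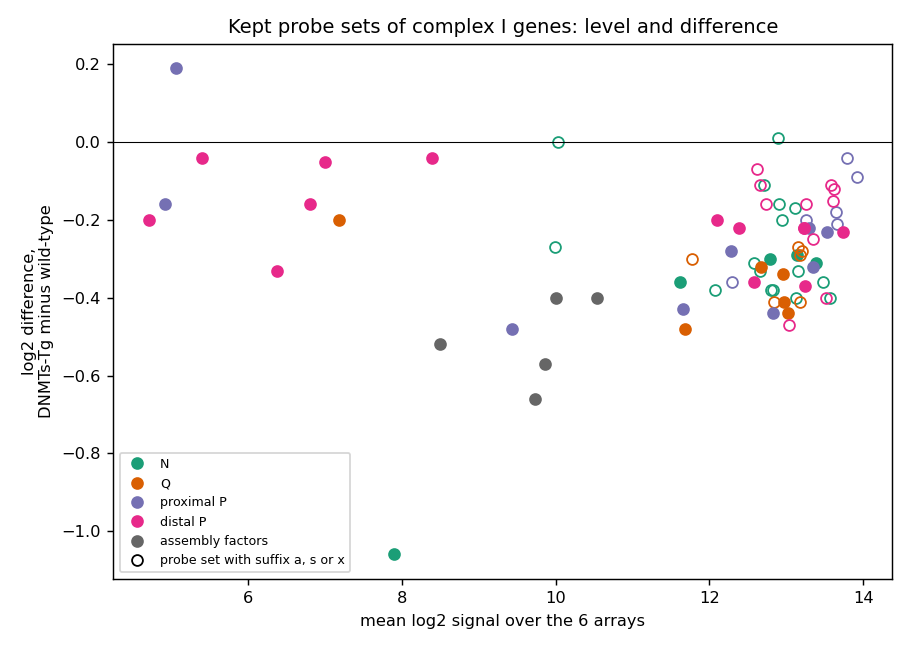
Log2 difference, DNMTs-Tg minus wild-type, against the mean log2 signal over the 6 arrays for the 76 kept probe sets, coloured by module, with open circles for probe sets whose suffix marks probes that match several transcripts. 73 of the 76 lie below 0, and the lowest is the Ndufs4 probe set at -1.06.

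DNA methyltransferases modify CpG dinucleotides, so the CpG content of the promoters is given for context. RefSeq promoters (GRCm38.p6, 250 bases before to 50 after the annotated start, the first listed start of each gene) were found for 36 of the 39 members. They held a median of 20 CpGs, from 8 in Ndufc2 to 39 in Ndufv2, and the promoters of all genes tested also held a median of 20. Those of all genes in the promoter table held 7. The medians were alike but the spreads were not, with a 10th to 90th percentile of 13.0 to 27.5 in members and 4.0 to 36.0 in the 10936 tested genes that had a promoter. Across the 33 members with a promoter and a difference, the count of CpGs and the log2 difference had a Pearson's r of -0.36 and a Spearman's rho of -0.38, a description over genes that share the same 6 arrays.

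The promoter of Ndufaf2, the member that fell, is shown with that of Ndufs5, the subunit with the lowest p, and of Ndufa13, the member with the smallest difference. They hold 25, 25 and 18 CpGs, which are in capitals. In GRCm38.p6 they lie at chr13:108158576-108158875, minus strand, chr4:123718137-123718436, minus strand, and chr8:69901971-69902270, minus strand, and each is written along the strand of its gene.
Ndufaf2: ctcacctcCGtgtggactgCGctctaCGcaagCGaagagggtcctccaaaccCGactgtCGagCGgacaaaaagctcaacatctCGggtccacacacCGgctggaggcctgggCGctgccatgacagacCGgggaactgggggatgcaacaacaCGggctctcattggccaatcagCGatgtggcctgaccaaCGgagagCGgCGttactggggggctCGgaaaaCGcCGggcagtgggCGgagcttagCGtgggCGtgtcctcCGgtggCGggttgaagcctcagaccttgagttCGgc
Ndufs5: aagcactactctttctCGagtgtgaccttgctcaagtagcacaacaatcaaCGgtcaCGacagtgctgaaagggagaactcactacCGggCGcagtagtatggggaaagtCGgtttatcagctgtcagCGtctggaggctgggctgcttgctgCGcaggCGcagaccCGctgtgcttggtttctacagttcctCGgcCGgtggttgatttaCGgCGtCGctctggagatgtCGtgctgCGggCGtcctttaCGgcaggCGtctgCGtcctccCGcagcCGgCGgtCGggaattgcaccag
Ndufa13: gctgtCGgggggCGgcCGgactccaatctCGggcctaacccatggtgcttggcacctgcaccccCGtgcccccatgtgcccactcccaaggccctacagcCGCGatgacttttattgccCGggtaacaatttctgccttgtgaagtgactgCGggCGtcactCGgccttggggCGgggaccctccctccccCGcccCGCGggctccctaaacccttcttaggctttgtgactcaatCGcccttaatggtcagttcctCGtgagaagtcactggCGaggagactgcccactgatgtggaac

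Motifs of factors known to regulate respiratory chain genes were searched on both strands of these 300-base promoters. YY1 is a zinc finger factor that binds close to start sites, and its letters AAGATGGC were found in 7 of 36 member promoters (19.4%), against 4.44% of the promoters of all genes tested and 2.88% of all promoters. For the letters AAGGTCA, a half-site of oestrogen-related receptors, the shares were 8.33%, 3.28% and 4.66%, and for CCGGAAG, read by GABPA, 13.9%, 16.5% and 9.12%. The NRF1 palindrome, given by name alone, was found in 5.56%, 1.86% and 0.977%. The stretches around the 7 YY1 matches are shown because they lie at like places, beginning 23 to 39 bases after the annotated start and on the strand of the gene. The letters in capitals are the match, and whether the ATG in it is a start codon was not examined. Their positions in GRCm38.p6 are Ndufc1 at chr3:51408916-51408943 (minus strand), Ndufa9 at chr6:126849098-126849125 (minus strand), Ndufa3 at chr7:3617385-3617412 (plus strand), Ndufs7 at chr10:80249463-80249490 (plus strand), Ndufs6 at chr13:73328433-73328459 (minus strand), Ndufs4 at chr13:114388045-114388069 (minus strand), Ndufb8 at chr19:44555393-44555414 (minus strand).
Ndufc1: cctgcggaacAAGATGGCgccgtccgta
Ndufa9: attgtgggagAAGATGGCggccgccgtc
Ndufa3: cgccaagaacAAGATGGCcgggagtaag
Ndufs7: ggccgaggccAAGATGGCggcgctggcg
Ndufs6: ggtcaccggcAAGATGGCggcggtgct
Ndufs4: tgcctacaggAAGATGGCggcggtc
Ndufb8: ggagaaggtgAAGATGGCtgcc

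The 6 of them that were tested had differences of -0.36 to -0.18, within the range of the other members. Yy1 itself had log2 signals of 10.45, 10.03 and 9.98 in DNMTs-Tg against 9.77, 9.87 and 9.84 in wild-type hearts, a difference of 0.32 ± 0.14 that did not pass (adjusted p = 0.199).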

How the data were processed

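The authors deposited 1 log2 signal per probe set and array for 6 hearts. The unit was inferred from the values (2.06 to 14.74), while the sources used here do not give background correction, normalization or software. Per the labels' protocols, total RNA was labelled by in vitro transcription after 1 cycle of cDNA synthesis. Values were used as deposited. Probe sets above the 40th percentile of the array on 3 or more of 6 arrays were kept, and each gene was represented by its brightest kept probe set. Symbols came from the platform annotation, updated by gene identifier to GRCm38.p6. The 2-sided test was that of limma (version 3.58.1, R 4.3.3, eBayes with trend), with p-values adjusted by Benjamini-Hochberg over 13634 genes or 27319 probe sets. All adjusted p-values come from limma. The fit was tested on simulated data with independent noise and changes larger than those of the members, so not on differences of their size.

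Every member may be named. Values on each array are given for members past the threshold, for the 2 lowest p and the largest difference of each module, and for genes whose kept probe sets differ in sign. Of other lists up to 4 members past the threshold are named, otherwise the 2 lowest p, and Yy1, Dmac1 and Postn were named after their values were seen. The members, modules and lists were chosen with earlier results of these data known. The labels number the mice but give no litter, so litter could not be taken into account. The p-values set the group difference against the spread within the groups, which limma adjusts with the help of all genes. The number of arrays limits the precision. Replicate numbers 1 and 6 occur in both groups, but nothing says that they pair mice.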

Additional observations from a re-analysis of the deposited data

How the results depend on the processing

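The number of members called lower, 1 with all arrays, was 0 with no filter and 0 with the label number as a replicate block. It was 23 with array weights, a fit that stopped before convergence. That fit called 4822 of 13634 genes, with 18.3% of all genes called lower. The number was 4 at an adjusted p under 0.1 and 18 at an unadjusted p under 0.05, where 6.51% and 13.1% of all genes were lower. Leaving out 1 array gave 0 to 6, with shares over all genes given above only for the fits without DNMTs-Tg replicates 1 and 6. No member was called higher in any of these fits. Of the member probe sets, 0 were called, where 2.36% of all kept probe sets fell. Under quantile normalization 1 was called, and 0 to 5 with 1 array left out. The shares over all kept probe sets in those fits are not given here. Same-numbered mice correlated at -0.05 and -0.08 in their deviations from the group means, where all pairs across the groups lay between -0.08 and 0.11. With 3 mice per group these values cannot decide whether the label numbers pair mice. In the block fit 1 gene of all was called, against 735 without it. The medians over the members and over each module kept their sign in these fits. The 1 member to change sign was Ndufa13, at 0.00 with array weights and 0.04 without DNMTs-Tg replicate 1 (-0.10 to 0.04 with 1 array left out). The filter at the 60th percentile, a common median, the mean of probe sets, unsuffixed probe sets, no trend and a robust fit each kept 1 call, Ndufaf2.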
